A study of Drosophila melanogaster with 18 samples.

Results

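The change of gene expression over the last hours of larval life was examined in the fat body of a Dutch (NL) population of *D. melanogaster*, by setting late wandering larvae against early wandering larvae. The comparison rests on 6 of the 18 RNA sequencing libraries of the study, 3 late and 3 early, and on the 12460 of 16438 genes that averaged at least 15 counts over all 18. Late wandering larvae had a clear gut and salivary gland puff stage 7–9, and early wandering larvae still carried dyed food and were at puff stage 1–2. The larvae were female, were reared at 25°C and came from 12 isofemale strains, and every library pooled fat bodies of all 12, so the spread between libraries does not measure the variation among strains. White prepupae of the same strains (3 libraries) and late and early larvae of a Zambian (ZI) population (3 libraries each, 10 strains) are cited where they place a Dutch value.

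The larval fat body combines the roles of liver and adipose tissue. It stores triglyceride and glycogen, secretes storage proteins, lipoproteins and immune peptides into the hemolymph, and feeds the animal through metamorphosis. At the end of the third instar a pulse of the steroid 20-hydroxyecdysone binds the receptor EcR with its partner Usp, which turns on a set of early genes that encode further transcription factors. Feeding stops, the gut empties, the fat body takes storage proteins back up, and autophagy begins. Later the tissue loosens into single cells as its basement membrane is opened.

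The late libraries held 22926726 to 28515174 counts and the early libraries 30029493 to 33687433. Defining genes of the fat body (larval serum proteins, apolipophorin and others, 9 genes) summed to 263000 to 384000 CPM in late libraries and to 520000 to 585000 CPM in early libraries, where CPM is the read count scaled to library size with TMM factors, and none of the 9 was at 0. These factors were 0.988 to 1.275 in late and 0.742 to 0.857 in early libraries, so such sums are not shares of the counts. Late replicate 1 stood apart from the other two of its group. On a line from the mean of the early libraries (0) to the mean of the prepupal libraries (1), computed over all genes, it lay at 0.482, and late replicates 2 and 3 at 0.725 and 0.781. Marker genes of the gut summed to 144 CPM in late replicate 2 and 148 CPM in early replicate 3, against 19.6 to 23.4 CPM in each of the other 4 libraries. The part of staging or of gut tissue in single results was not tested.

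Of the 12460 genes, 5180 (41.6%) differed between the late and the early stage, with 2290 (18.4%) higher and 2890 (23.2%) lower at the late stage (edgeR quasi-likelihood test, adjusted p under 0.05). By size, 900 genes rose and 1022 fell by at least 1 on the log2 scale, 130 rose and 87 fell by at least 2, and 40 rose and 7 fell by at least 3. The balance of rises and falls depended on the scaling and on single libraries. With upper-quartile factors 3717 genes rose and 2368 fell, the median over all genes was 0.34 in place of 0.14, and rises made up 61.1% of the calls in place of 44.2%. Without late replicate 1 there were 4332 rises and 2509 falls, and without late replicate 2 there were 1411 and 2371. The median of all genes was 0.343 without late replicate 1, and 0.295, 0.301 and 0.274 without early replicates 1, 2 and 3. A value of a single gene without 1 library is to be read against the median of that fit. The lists below are therefore read against the median of all genes, 0.14, and against the share of all genes called in the same direction. In pooled tissue, fewer cells of a type and less RNA per cell cannot be told apart.

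Rises and falls were unevenly spread over expression levels. In the lowest of 5 equal classes of mean log2 CPM (median 0.825 CPM), 422 genes rose and 46 fell, and the median log2 fold change was 0.59. In the highest class (median 66.6 CPM), 454 rose and 1106 fell, with a median of -0.25. The median log2 CPM of the lowest class was -0.23, 0.22 and 0.09 in the late libraries, against -0.59, -0.72 and -0.27 in the early libraries, so that every late library lay above every early one, and late replicate 1 lay nearest to them. With each library thinned to 22926726 counts, 12764 ± 810 genes reached 15 counts at the late stage and 10606 ± 652 at the early stage (SD, n = 3 each, exact permutation p = 0.1, the smallest that 3 against 3 allows). Taken as means of the thinned libraries, 2314 genes reached 15 counts at the late stage alone and 42 at the early stage alone. Thinning made the totals equal, but not the counts left for most genes. The 10 genes with the most counts took 47.0% of counts in late libraries and 55.1% in early libraries on average. The part of this make-up in the numbers of genes detected was not tested.

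**Figure D1:**
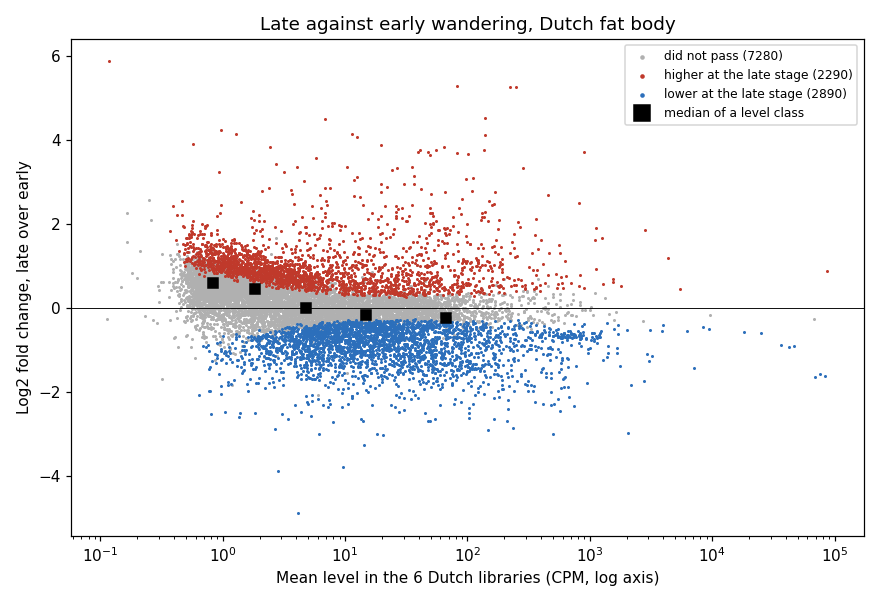
Log2 fold change (late over early, Dutch libraries) against the mean level (CPM, log axis) of the 12460 genes; red points rose, blue points fell, grey points did not pass the test, and black squares are medians of the 5 level classes. The medians run from 0.59 in the lowest class to -0.25 in the highest.

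The leading rises were taken among called genes with the groups apart and a mean of at least 1 CPM. Below that level, *Eig71Ea*, described with the hormone-induced effectors, had a larger value (5.86), with late replicate 1 at 0 CPM. *CG34206* had 134, 185 and 163 CPM in late libraries, against 4.01, 3.998 and 4.33 CPM in early libraries (log2 fold change 5.28, standard error 0.18, adjusted p = 8.78e-14). It overlaps *a* on the opposite strand, and because the sources do not say whether counting used strand, reads of such pairs cannot be told apart. *CG9812* had 415, 617 and 434 CPM in late libraries and 12.8, 13.4 and 11.9 CPM in early libraries (log2 fold change 5.26, standard error 0.30, adjusted p = 1.41e-10), and its opposite-strand neighbour *CG30411* rose with it (4.50). Both genes went on to higher levels in prepupae, where CG34206 averaged 732 ± 81.5 CPM and CG9812 averaged 2052 ± 179 CPM (SD, n = 3 each). *santa-maria*, a scavenger receptor of the CD36 family that takes up carotenoids, had 335, 484 and 492 CPM in late libraries, against 10.2, 12.6 and 11.3 CPM in early libraries. The gene *CG5973*, on the opposite strand at the same place, moved in parallel with a log2 fold change of 3.88. For each of these genes every late library lay far above every early one.

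The remaining leading rises were *CG5618* (4.52), *CG1607* (4.12), a predicted amino acid transporter, *Mal-A8* (4.06), a maltase, *CG5697* (3.83) and *CG34296* (3.82), each with its log2 fold change, together with the lncRNA gene *lncRNA:CR45593* and the peptide gene *Drsl2*, described below. *CG1607* stood at 227, 288 and 269.9 CPM in late libraries and 14.6, 16.8 and 13.7 CPM in early libraries, with little spread inside either group (log2 fold change 4.12, standard error 0.15, adjusted p = 2.27e-13). *CG5697* was still far from its prepupal level of 1034 ± 51.4 CPM, with 113, 141 and 108 CPM in late libraries and 10.97, 7.28 and 7.17 CPM in early libraries. All 12 leading rises were separated between the groups, as the rule that named them required.

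The leading falls included several genes for enzymes. *FASN1*, the fatty acid synthase of the fat body (chr2L:3056598-3068177, + strand, release 6 of the genome), had 608, 423 and 353 CPM in late libraries, against 3894, 3628 and 3410 CPM in early libraries (log2 fold change -2.98, standard error 0.25, adjusted p = 2.02e-08). *Pgd*, the enzyme of the pentose phosphate pathway that yields NADPH after glucose-6-phosphate dehydrogenase, had 69.2, 55.9 and 45.4 CPM in late libraries and 435, 424 and 394 CPM in early libraries (log2 fold change -2.88, standard error 0.17, adjusted p = 3.23e-10). The early libraries agreed closely for both, and late replicate 1 was the highest of the late libraries. *Nplp2*, annotated as a neuropeptide-like precursor, showed the same order with a wider spread, at 170.5, 119 and 45.1 CPM in late libraries and 893, 891 and 889 CPM in early libraries (log2 fold change -3.00, standard error 0.43, adjusted p = 1.26e-05), and it averaged 15.6 ± 6.01 CPM in prepupae. *Tsp42Eg*, a tetraspanin, had 2.27, 3.08 and 2.57 CPM in late libraries, against 27.6, 25.0 and 24.6 CPM in early libraries (log2 fold change -3.28, standard error 0.15, adjusted p = 1.14e-11). The others were *CG15093* (-3.02), which lies opposite the noncoding gene *asRNA:CR43964* (-2.89), *sisA* (-3.01), a transcription factor of embryonic sex determination, *Akr1B* (-2.92), an aldo-keto reductase, the glutathione S-transferases *GstD6* (-3.02) and *GstD7* (-2.72), and the immune peptide genes *CecB* (-4.90) and *CecC* (-3.80).

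**Figure D2:**
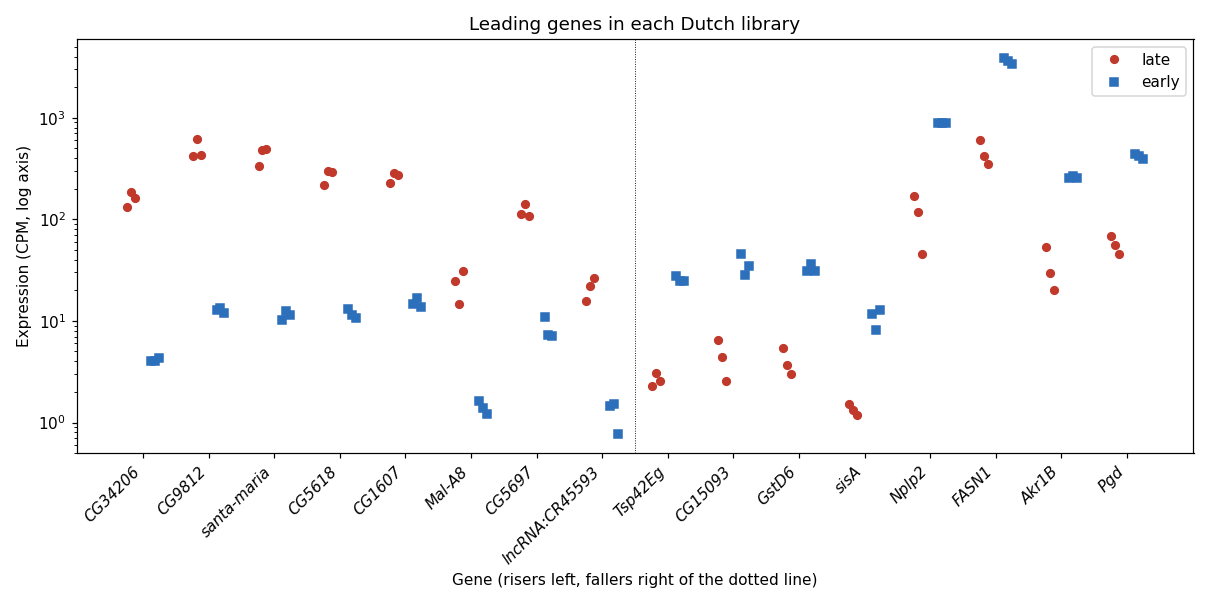
Expression (CPM, log axis) of 8 leading risers and 8 leading fallers in each Dutch library, late libraries (red circles) left of early libraries (blue squares) for every gene; 1 point is 1 library. The groups are apart for every gene, as the rule required, with FASN1 at 353 to 608 CPM in late libraries and 3410 to 3894 CPM in early libraries.

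Regulators of the ecdysone response were mostly higher at the late stage. Of the 14 genes listed as receptors and early regulators, 9 rose and 1 fell, with a median of 0.98. *Eip78C*, a nuclear receptor of the early response, had 42.8, 62.9 and 87.7 CPM in late libraries, against 9.05, 9.34 and 6.72 CPM in early libraries (log2 fold change 2.95, standard error 0.26, adjusted p = 3.19e-08). *E23*, an ABC transporter induced by the hormone, had 111, 143 and 208 CPM in late libraries and 31.5, 25.8 and 19.5 CPM in early libraries (log2 fold change 2.59, standard error 0.25, adjusted p = 1.13e-07). *Hr4*, a nuclear receptor, had 58.9, 79.8 and 111 CPM in late libraries and 15.8, 15.1 and 16.8 CPM in early libraries (log2 fold change 2.38, standard error 0.19, adjusted p = 1.27e-08). The groups were apart for each of these genes, and late replicate 1 was nearest to the early libraries. *Hr3*, the nuclear receptor that acts after the first wave, rose by 2.14 and differed little among late libraries, at 8.17, 9.62 and 8.94 CPM, against 2.43, 1.62 and 2.01 CPM in early libraries.

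Smaller rises were seen for *Eip75B* (log2 fold change 1.13, adjusted p = 7.94e-06), *Hr39* (log2 fold change 1.01, adjusted p = 1.87e-05), *Blimp-1* (log2 fold change 1.0, adjusted p = 0.00163), *Kr-h1* (log2 fold change 0.96, adjusted p = 2.04e-05), a target of juvenile hormone, and *br* (log2 fold change 0.85, adjusted p = 0.000666), the Broad-Complex. The receptor gene *EcR* fell, with 99.7, 69.5 and 62.3 CPM in late libraries, against 133, 125 and 125 CPM in early libraries (log2 fold change -0.73, standard error 0.17, adjusted p = 0.00217), and continued to 33.7 ± 5.13 CPM in prepupae. Its partner *usp* (log2 fold change 0.09, adjusted p = 0.528), *crol* (log2 fold change 0.11, adjusted p = 0.436), *Eip74EF* (log2 fold change 0.05, adjusted p = 0.743) and *DopEcR* (log2 fold change -0.19, adjusted p = 0.489), a membrane receptor for dopamine and ecdysteroids, did not pass the test. With upper-quartile factors *usp*, *crol* and *Eip74EF* passed as small rises. Of the regulators that follow, *Eip93F*, a determinant of the later response, rose to 11.4, 18.1 and 13.8 CPM in late libraries, against 4.35, 4.63 and 5.41 CPM in early libraries (log2 fold change 1.58, standard error 0.21, adjusted p = 4.27e-06), and reached 63.4 ± 9.38 CPM in prepupae. The competence factor *ftz-f1* fell, with 6.82, 7.32 and 6.61 CPM in late libraries and 9.13, 10.7 and 12.2 CPM in early libraries (log2 fold change -0.63, standard error 0.14, adjusted p = 0.00104), and its groups did not overlap. Without early replicate 3 its log2 fold change was -0.37.

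**Figure D3:**
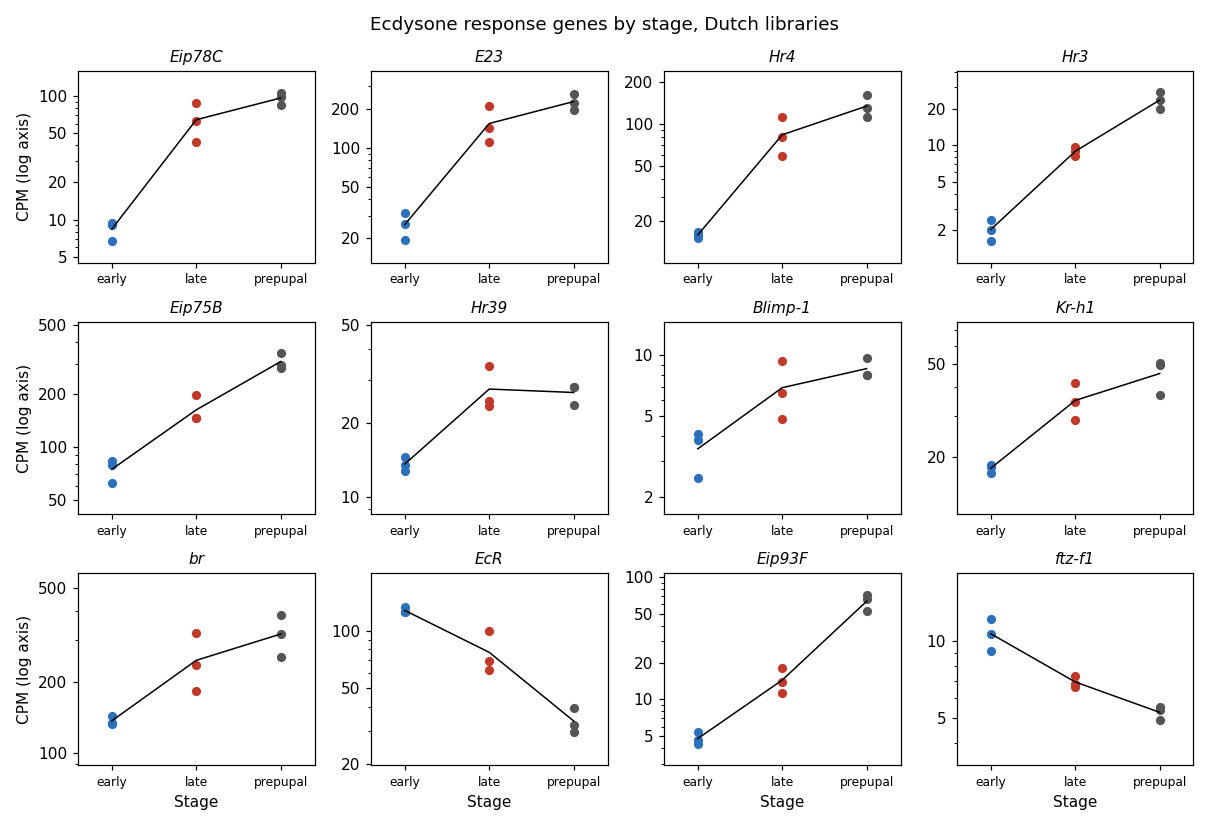
Expression (CPM, log axis) of 12 ecdysone response genes in Dutch early, late and prepupal libraries, in time order; points are libraries and the line joins the stage means (n = 3 each). Eip78C, E23 and Hr4 made most of their rise between the early and late stage, while Eip93F averaged 14.4 CPM at the late stage and 63.4 CPM in prepupae.

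Of 14 hormone-induced effectors tested, 6 were higher (42.9%, against 18.4% of all genes) and 3 lower (21.4%, near the 23.2% of all genes). The largest called rise was that of *Eig71Ea* (log2 fold change 5.86, standard error 1.81, adjusted p = 0.0149). It had 0, 0.432 and 0.274 CPM in late libraries and 0 CPM in every early library. The rises included *ImpE2* (log2 fold change 2.21, adjusted p = 2.85e-05), which had 3.34, 2.94 and 3.43 CPM in late libraries against 0.982, 0.359 and 0.728 CPM in early libraries, and the cyclin-dependent kinase gene *Eip63E* (log2 fold change 1.26, adjusted p = 1.06e-06). *Cth*, the cystathionine gamma-lyase first known as Eip55E, fell (log2 fold change -0.88, standard error 0.16, adjusted p = 0.000159). Of 4 genes for import, activation and clearance of the hormone 1 fell (25.0%, near the 23.2% of all genes) and none rose. *shd*, which turns ecdysone into 20-hydroxyecdysone, had 175, 95.0 and 88.2 CPM in late libraries and 176, 178 and 172 CPM in early libraries (log2 fold change -0.55, standard error 0.20, adjusted p = 0.0368). Late replicate 1 lay inside the early range, and leaving out any of the other 5 libraries in turn ended the call (log2 fold change -0.43 to -0.37). Without early replicates 1, 2 and 3 the median of all genes moved up too, to 0.295, 0.301 and 0.274. The importer *Oatp74D* (-0.35, adjusted p = 0.0825), the inactivating *Cyp18a1* (0.25, adjusted p = 0.46) and the oxidase *Eo* (0.46, adjusted p = 0.11) did not pass the test. With upper-quartile factors the call of shd was lost (-0.37, adjusted p = 0.0693) and Eo passed as a rise (0.66, adjusted p = 0.0375). Among 8 genes of juvenile hormone reception and breakdown, the epoxide hydrolases *Jheh3* (log2 fold change -1.24, adjusted p = 4.64e-05) and *Jheh1* (log2 fold change -0.78, adjusted p = 0.000614) fell and the receptor coactivator *tai* (log2 fold change 1.01, adjusted p = 5.46e-06) rose. The list thus had 25.0% lower and 12.5% higher, near the 23.2% and 18.4% of all genes.

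Storage protein transcripts made up much of every library and shifted in make-up. The list used for their share includes the receptor gene Fbp1, whose own share was higher at the late stage, as given below. The 6 genes of the list took 34.3%, 31.2% and 30.0% of the counts in late libraries, against 39.3%, 38.7% and 39.9% in early libraries (means 31.9% and 39.3%, exact permutation p = 0.1, n = 3 each). The share of the 3 Lsp1 genes was 12.6 ± 4.0% at the late stage and 27.3 ± 1.04% at the early stage. *Lsp1alpha*, a subunit of larval serum protein 1, had 50550, 25950 and 23110 CPM in late libraries, against 102800, 107400 and 104500 CPM in early libraries (log2 fold change -1.66, standard error 0.25, adjusted p = 2.5e-05). *Lsp1gamma* (-1.63) and *Lsp1beta* (-1.57) fell by similar amounts, and *Lsp2* (-0.92) and *Fbp2* (-0.60) less. For Fbp2 the call was lost without early replicate 2 (-0.38, adjusted p = 0.0662) and with only the 6 compared libraries in the fit (adjusted p = 0.1). *Fbp1*, which encodes the fat body receptor that takes larval serum proteins back up, went the other way. It stood at 111400, 111200 and 116400 CPM in late libraries and 74320, 63580 and 48680 CPM in early libraries (log2 fold change 0.86, standard error 0.19, adjusted p = 0.00129), and took 13.3 ± 2.01% of counts at the late stage, against 4.89 ± 0.81% at the early stage. The call of Fbp1 was lost with only the 6 compared libraries in the fit (0.86, adjusted p = 0.0576). Prepupae had 179700 ± 11710 CPM.

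The 4 other genes among the 10 with the highest mean CPM were lower or did not pass the test. *apolpp*, the precursor of the main lipid carrier of the hemolymph, had 35390, 26070 and 26340 CPM in late libraries, against 55910, 59740 and 51840 CPM in early libraries (log2 fold change -0.93, standard error 0.20, adjusted p = 0.000719). *asRNA:CR11538*, which lies opposite Lsp2, fell by nearly the same amount as that gene (-0.89). The RNA of the signal recognition particle, *7SLRNA:CR32864*, had 71430, 57370 and 56350 CPM in late libraries and 73470, 81900 and 68790 CPM in early libraries, and did not pass the test (log2 fold change -0.28, standard error 0.19, adjusted p = 0.236). *Obp99b*, an odorant binding protein gene, fell (log2 fold change -0.57, standard error 0.18, adjusted p = 0.0143), and that call was lost without early replicate 1 (-0.41), early replicate 2 (-0.34), late replicate 2 (-0.52) or late replicate 3 (-0.51).

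Both matrix metalloproteinases, which cut the basement membrane around fat body cells, were higher at the late stage. *Mmp1* had 31.2, 51.9 and 62.2 CPM in late libraries, against 3.76, 4.31 and 6.24 CPM in early libraries (log2 fold change 3.33, standard error 0.24, adjusted p = 3.94e-09), and 107 ± 15.2 CPM in prepupae. *Mmp2* had 31.2, 40.6 and 30.2 CPM in late libraries and 6.15, 4.40 and 4.54 CPM in early libraries (log2 fold change 2.76, standard error 0.20, adjusted p = 3.33e-09), and 169 ± 18.2 CPM in prepupae. Every late library lay far above every early one for both. Their inhibitor *Timp* had 2.63, 3.75 and 2.98 CPM in late libraries and 2.22, 3.14 and 2.67 CPM in early libraries, which overlap (log2 fold change 0.23, standard error 0.23, adjusted p = 0.428). Of 11 genes for the basement membrane and for collagen maturation, 9 fell and 1 rose, with a median of -0.60. The largest falls were in the collagen-modifying enzymes *PH4alphaEFB* (log2 fold change -1.82, adjusted p = 3.59e-08) and *Plod* (log2 fold change -1.63, adjusted p = 1.11e-05), followed by *SPARC* (log2 fold change -1.23, adjusted p = 5.72e-06) and the nidogen gene *Ndg* (log2 fold change -1.15, adjusted p = 3.47e-06). The perlecan gene *trol* had 2800, 2155 and 2334 CPM in late libraries and 3147, 2973 and 2990 CPM in early libraries and did not pass (-0.32, adjusted p = 0.107), and *Mp* (log2 fold change 0.93, adjusted p = 0.000109), a collagen XV/XVIII gene, was the 1 member that rose.

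Genes that make fatty acids were lower at the late stage, with 11 of 14 tested lower and none higher (median -0.97). Besides *FASN1*, the desaturase *Desat1* had 309.5, 229.8 and 198 CPM in late libraries, against 1213, 1424 and 1115 CPM in early libraries (log2 fold change -2.35, standard error 0.19, adjusted p = 1.32e-08). *ATPCL*, ATP citrate lyase, had 221, 154 and 142 CPM in late libraries and 983, 804 and 735 CPM in early libraries (log2 fold change -2.29, standard error 0.18, adjusted p = 7.15e-09). *ACC*, acetyl-CoA carboxylase, had 139.7, 132 and 100.3 CPM in late libraries and 667, 564 and 530.0 CPM in early libraries (log2 fold change -2.24, standard error 0.17, adjusted p = 6.07e-09). For all 4 genes, FASN1 included, every early library lay above every late one. Downstream, 5 of 10 genes of glycerolipid assembly fell and none rose, and 3 fell without early replicate 1 or 2 or without late replicate 2 or 3. They were led by *Agpat2* (log2 fold change -2.17, adjusted p = 7.25e-09), an acyltransferase, *Gpdh1* (log2 fold change -2.05, adjusted p = 9.83e-08), glycerol-3-phosphate dehydrogenase, and *mdy* (log2 fold change -1.45, adjusted p = 1.27e-06), a diacylglycerol acyltransferase, while *mino*, a mitochondrial glycerol-3-phosphate acyltransferase, did not pass (-0.09, adjusted p = 0.652).

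Lists of lipid use and transport held calls in both directions. Among 9 genes of lipid droplets and lipases, *dob* (log2 fold change -0.81, adjusted p = 0.000254), a lipase gene, and the perilipin gene *Lsd-2* (log2 fold change -0.57, adjusted p = 0.00734) fell, and *Lsd-1*, the other perilipin gene, had 707, 798 and 1058 CPM in late libraries and 871, 949.5 and 652 CPM in early libraries (0.05, adjusted p = 0.804). The 2 falls were 22.2% of that list, near the 23.2% of all genes. The call of Lsd-2 was lost without early replicate 1 (-0.39), early replicate 2 (-0.35) or late replicate 2 (-0.48), and 4 genes of the list fell without late replicate 1. Of 12 genes of fatty acid oxidation, 5 fell and 1 rose, *whd* (log2 fold change 0.46, adjusted p = 0.0446), a carnitine palmitoyltransferase gene that DESeq2 did not call (adjusted p = 0.0641). Only 2 fell without early replicate 2 or late replicate 3, and 3 without early replicate 1, early replicate 3 or late replicate 2. *Acox57D-d* (log2 fold change -2.30, adjusted p = 8.32e-09), a peroxisomal acyl-CoA oxidase gene, fell most, and the medium-chain dehydrogenase gene *Mcad* did not pass (0.13, adjusted p = 0.632). Lipoprotein genes included falls of *Apoltp* (log2 fold change -1.33, adjusted p = 5.77e-06) and *Mtp* (log2 fold change -0.78, adjusted p = 0.000801), both needed to load lipid on apolipophorin. Of 10 genes for scavenger receptors and lipocalins, 5 rose and none fell, among them *emp* (log2 fold change 1.33, adjusted p = 3.72e-07), a scavenger receptor, and the lipocalin genes *NLaz* (3.75) and *GLaz* (log2 fold change 1.99, adjusted p = 0.000298).

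Transcripts of most glycolytic enzymes and of most genes for trehalose and glycogen were lower. Of 13 glycolytic genes 11 fell, with a median of -1.44, and 1 rose, the hexokinase gene *Hex-C* (log2 fold change 0.76, adjusted p = 0.00261). *Pgi*, phosphoglucose isomerase, had 282, 163 and 129 CPM in late libraries, against 744, 844 and 744 CPM in early libraries (log2 fold change -2.02, standard error 0.21, adjusted p = 2.73e-07). *Pglym78* (log2 fold change -1.87, adjusted p = 2.57e-07), *Eno* (log2 fold change -1.71, adjusted p = 2.27e-07), *Gapdh2* (log2 fold change -1.69, adjusted p = 2.68e-06) and *Gapdh1* (log2 fold change -1.26, adjusted p = 2.48e-06) followed. Of 8 genes for trehalose and glycogen 7 fell and none rose. *AGBE*, the glycogen branching enzyme, had 68.6, 36.6 and 27.1 CPM in late libraries and 184, 187 and 184 CPM in early libraries (log2 fold change -2.07, standard error 0.25, adjusted p = 1.5e-06). Glycogen synthase *Glys* (-1.58), glycogen phosphorylase *Glyp* (-1.35) and trehalose synthase *Tps1* (-0.72) fell less, and the call of Tps1 was lost with only the 6 compared libraries in the fit (adjusted p = 0.0542). For all of the falling genes named here late replicate 1 was the highest of the late libraries, and still below every early library.

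Of 13 maltase and amylase genes 7 rose and 1 fell. *Mal-A8* had 24.8, 14.7 and 30.8 CPM in late libraries and 1.62, 1.39 and 1.21 CPM in early libraries (log2 fold change 4.06, standard error 0.39, adjusted p = 1.31e-07), and *Mal-A7* had 11.8, 7.17 and 16.7 CPM in late libraries and 2.22, 1.84 and 2.04 CPM in early libraries (log2 fold change 2.54, standard error 0.27, adjusted p = 3.68e-07). The amylase gene *Amy-d* had 7.28, 6.48 and 8.98 CPM in late libraries and 2.18, 1.80 and 2.01 CPM in early libraries (log2 fold change 1.92, standard error 0.56, adjusted p = 0.00957). *Mal-A5* (log2 fold change 0.48, adjusted p = 0.00923) rose too, a call that was lost with only the 6 compared libraries in the fit (adjusted p = 0.0585). Gut markers were highest in late replicate 2 and early replicate 3, at 144 and 148 CPM, and their part in these changes was not tested. The single fall was in *tobi*, a maltase-like gene that responds to dietary sugar and protein, with 10.6, 7.14 and 7.30 CPM in late libraries, against 38.5, 52.2 and 49.9 CPM in early libraries (log2 fold change -2.49, standard error 0.18, adjusted p = 4.44e-09).

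Genes of autophagy and of lysosomal proteases rose in part. Of 26 autophagy genes 9 rose and none fell, and the median of 0.20 was close to that of all genes. *Atg7*, the enzyme that activates the ubiquitin-like Atg8 and Atg12, had 70.9, 109.6 and 141 CPM in late libraries, against 33.0, 32.1 and 20.9 CPM in early libraries (log2 fold change 1.90, standard error 0.22, adjusted p = 1.19e-06). *Atg18b* (log2 fold change 0.97, adjusted p = 7.7e-05), *Atg2* (log2 fold change 0.91, adjusted p = 8.93e-06), *Atg8b* (log2 fold change 1.27, adjusted p = 0.0153) and *Atg8a* (log2 fold change 0.67, adjusted p = 0.00734) also rose. The number of rises was 16 without early replicate 2 and 14 without late replicate 1, and was 20 with upper-quartile factors. Of 9 lysosomal genes 4 rose, the cathepsin genes *CtsB* (log2 fold change 1.10, adjusted p = 8.36e-05), *CtsL1* (log2 fold change 1.09, adjusted p = 8.08e-05), *cathD* (log2 fold change 0.68, adjusted p = 0.000571) and *CtsF* (log2 fold change 0.51, adjusted p = 0.00728), and without early replicate 2 the value of CtsF was 0.79 and 7 genes of the list rose. Subunits of the vacuolar proton pump, which acidifies lysosomes, went down, with 14 of 17 lower and none higher, from -0.70 for *VhaAC39-1* to -0.48 for *Vha16-1* among those named by rule. With upper-quartile factors 10 fell and 1 rose, with a median of -0.30. The number of falls was 8 without early replicate 1 or early replicate 2, when the fall of Vha16-1 did not pass either (-0.32 and -0.27). Of 11 cell death genes 4 rose and 1 fell. *Dark*, the fly Apaf-1, rose most, with 29.8, 41.6 and 57.1 CPM in late libraries, against 9.22, 10.7 and 6.69 CPM in early libraries (log2 fold change 2.27, standard error 0.22, adjusted p = 1.61e-07). The caspase genes *Dcp-1* (log2 fold change 0.67, adjusted p = 0.0125) and *Dronc* (log2 fold change 0.54, adjusted p = 0.0119) and the caspase inhibitor gene *Diap1* (log2 fold change 0.42, adjusted p = 0.0188) also rose, and the caspase gene *Decay* (log2 fold change -1.04, adjusted p = 0.000436) fell. The call of Dronc was lost without late replicate 3 (0.45) and its value was 0.86 without early replicate 2. Diap1 was at 0.73 without early replicate 2, and its call was lost with RLE factors (0.38, adjusted p = 0.0511), with no filter on low counts (0.38, adjusted p = 0.0549) and with only the 6 compared libraries (0.42, adjusted p = 0.0612).

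**Figure D4:**
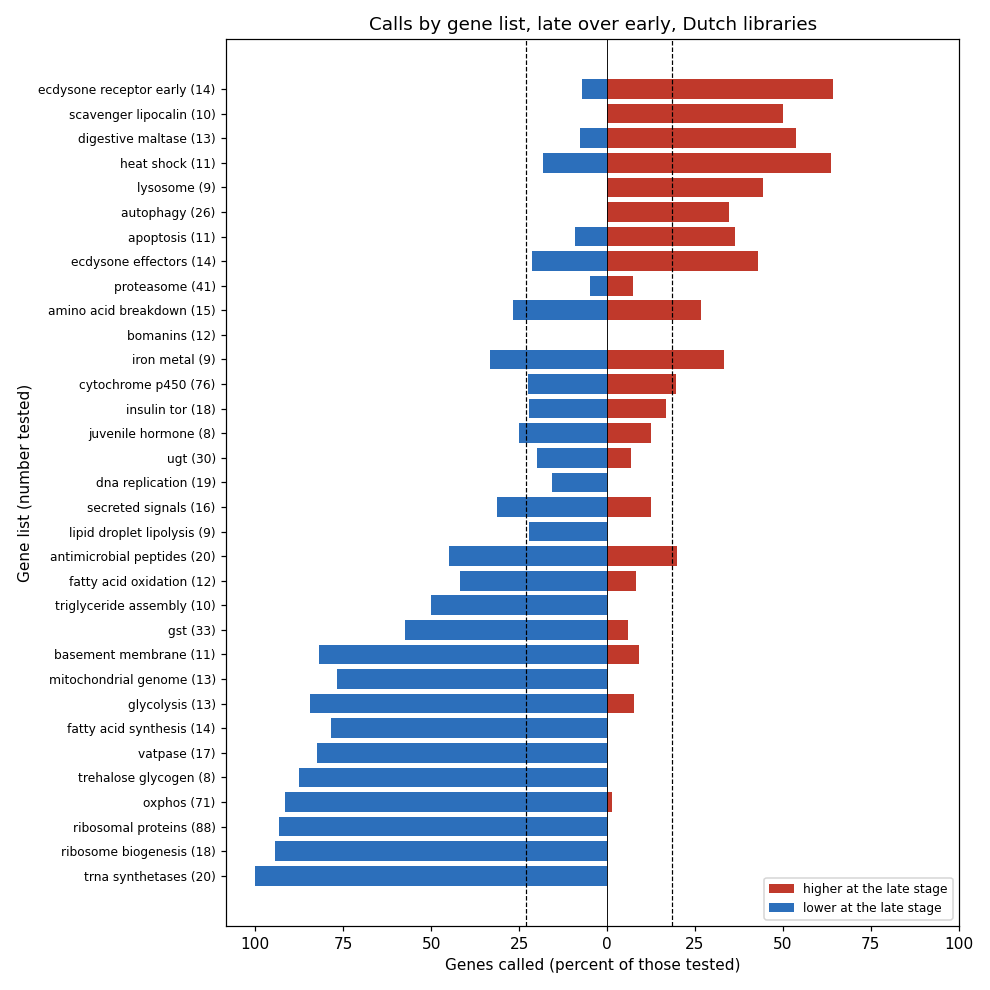
Share of tested genes (percent) that rose (red, to the right) and fell (blue, to the left) at the late stage in 33 gene lists, with the number tested in brackets; dashed lines mark the shares of all 12460 genes, 18.4% higher and 23.2% lower. The translation, respiration and sugar lists lie far left of the dashed line, and the early ecdysone, heat shock and maltase lists far right.

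The machinery of translation and respiration was lower almost throughout. Of 88 cytosolic ribosomal protein genes 82 fell and none rose, with a median of -0.66. *RpL3* had 1645, 1201 and 1154 CPM in late libraries, against 2095, 2229 and 1844 CPM in early libraries (log2 fold change -0.62, standard error 0.15, adjusted p = 0.0027). Without early replicate 2 its log2 fold change was -0.41. With upper-quartile factors 81 genes of the list fell and 2 rose. In the highest level class of all genes, where RpL3 lies, 1106 of 2492 fell and 454 rose (median -0.25). In the shortest length class 762 of 2493 fell and 277 rose. The part of level and of gene length in these lists was not tested. Of 18 ribosome biogenesis genes 17 fell, more strongly (median -1.01). *Nop56*, a component of the methylation complex of ribosomal RNA, had 4.83, 3.72 and 4.42 CPM in late libraries and 21.9, 18.01 and 15.9 CPM in early libraries (log2 fold change -2.11, standard error 0.17, adjusted p = 1.39e-08), and the growth regulator *Myc* had 20.4, 21.6 and 20.5 CPM in late libraries and 41.4, 44.4 and 37.2 CPM in early libraries (log2 fold change -0.98, standard error 0.18, adjusted p = 0.000198). All 20 aminoacyl-tRNA synthetase genes fell (median -1.41), and did so without any one of the 6 libraries, led by *SerRS* (log2 fold change -1.90, adjusted p = 1.99e-09) and *ValRS* (log2 fold change -1.75, adjusted p = 8.19e-09).

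Of 71 nuclear genes of oxidative phosphorylation, 65 fell (median -1.18) and 1 rose, *ND-24L* (log2 fold change 1.35, adjusted p = 0.0232), a call that was lost without early replicate 1 (1.42), early replicate 2 (1.34), late replicate 2 (1.21) or late replicate 3 (1.25). *Cyt-c-p*, cytochrome c, had 9.95, 8.70 and 6.07 CPM in late libraries, against 46.3, 39.6 and 41.4 CPM in early libraries (log2 fold change -2.36, standard error 0.19, adjusted p = 1.58e-08), and the ATP synthase genes *ATPsynbeta* (log2 fold change -1.68, adjusted p = 1.05e-06) and *blw* (log2 fold change -1.53, adjusted p = 6.75e-06) fell less. The number of falls was 65 whichever single library was left out. Of 13 genes of the mitochondrial genome 10 fell, with a median of -0.57 over the list and *mt:CoI* at 5697, 4524 and 4785 CPM in late libraries and 7157, 8215 and 6841 CPM in early libraries (log2 fold change -0.57, standard error 0.17, adjusted p = 0.0108). Its call was lost without early replicate 2 (-0.33) and without late replicate 2 (-0.50), and without early replicate 2 only 4 genes of that list fell. Of 41 proteasome genes 3 rose and 2 fell, but 18 rose with upper-quartile factors and 13 without early replicate 2 or late replicate 1, while 1 rose without late replicate 2 or 3. Of 19 genes of DNA replication and the endocycle 3 fell (15.8%, against 23.2% of all genes). Among them was *Mcm3* (log2 fold change -0.88, adjusted p = 0.000702), a subunit of the replicative helicase, whose value was -0.57 without early replicate 2. Only 1 gene of this list fell without early replicate 1, early replicate 2 or late replicate 1.

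Of 16 genes for secreted signals 2 rose (12.5%) and 5 fell (31.2%), where 18.4% of all genes rose and 23.2% fell. *Gbp1*, a growth-blocking peptide released by the fat body, had 46.4, 51.8 and 56.2 CPM in late libraries, against 12.3, 14.6 and 10.0 CPM in early libraries (log2 fold change 2.07, standard error 0.17, adjusted p = 1.52e-08). *Ilp6*, the insulin-like peptide of the fat body, had 219, 239 and 254 CPM in late libraries and 108, 100.3 and 77.4 CPM in early libraries (log2 fold change 1.32, standard error 0.14, adjusted p = 6.24e-07). Both continued upward, to 104 ± 8.34 and 391.8 ± 62.6 CPM in prepupae (SD, n = 3 each). The imaginal disc growth factors *Idgf4* (log2 fold change -1.08, adjusted p = 6.18e-05) and *Idgf6* (log2 fold change -1.07, adjusted p = 0.000177) fell. Of 18 insulin and TOR genes 3 rose (16.7%) and 4 fell (22.2%), close to the 18.4% and 23.2% of all genes, with 8 rises and 1 fall without early replicate 2. With upper-quartile factors 11 of the 18 rose and 3 fell, where 3717 of the 12460 genes rose and 2368 fell. DESeq2 called 1 rise and 4 falls. *Thor*, the translation inhibitor 4E-BP, rose most (52.6, 57.6 and 85.9 CPM in late libraries, 27.0, 28.7 and 22.7 CPM in early libraries, log2 fold change 1.32, standard error 0.27, adjusted p = 0.000666). Of 15 genes of amino acid and purine metabolism 4 rose and 4 fell (26.7% each, near the 18.4% and 23.2% of all genes). The falls numbered 2 without early replicate 2. *Gart*, which encodes a trifunctional enzyme of purine synthesis, had 4498, 4257 and 4518 CPM in late libraries, against 1442, 1498 and 769 CPM in early libraries (log2 fold change 1.84, standard error 0.23, adjusted p = 2.98e-06). *Adsl*, adenylosuccinate lyase, rose with it (362, 339.6 and 371 CPM in late libraries, 172, 159.8 and 125 CPM in early libraries, log2 fold change 1.23, standard error 0.15, adjusted p = 1.64e-06). Early replicate 3 was the lowest library for both genes, and Gart overlaps *Pcp* on the opposite strand.

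Small heat shock protein genes, known targets of ecdysone as well as of heat, rose strongly. Of 11 heat shock genes 7 rose and 2 fell. *Hsp23* had 1203, 1896 and 1903 CPM in late libraries, against 154, 163 and 70.0 CPM in early libraries (log2 fold change 3.69, standard error 0.36, adjusted p = 1.31e-07), and *Hsp27* had 204, 309.9 and 371 CPM in late libraries and 79.8, 85.1 and 44.4 CPM in early libraries (log2 fold change 2.08, standard error 0.26, adjusted p = 3.16e-06). *Hsp67Bc* (log2 fold change 1.83, adjusted p = 0.00154) and *Hsp26* (log2 fold change 1.71, adjusted p = 7.7e-05) rose as well, and early replicate 3 was the lowest library for Hsp23, Hsp27 and Hsp26. The constitutive chaperone gene *Hsc70-4* (log2 fold change -0.67, adjusted p = 0.000567) fell. Of 33 glutathione S-transferase genes 19 fell (median -0.70). *GstD6* had 5.40, 3.66 and 3.02 CPM in late libraries, against 30.9, 36.1 and 30.8 CPM in early libraries (log2 fold change -3.02, standard error 0.23, adjusted p = 6.15e-09), and *GstD9* (log2 fold change -1.69, adjusted p = 5.29e-07) and *GstD1* (log2 fold change -1.20, adjusted p = 4.93e-06) fell less. Members of this family are near-identical in places, so reads may have been shared or lost among them. Of 76 cytochrome P450 genes 15 were higher (19.7%) and 17 lower (22.4%), close to the 18.4% and 23.2% of all genes. *Cyp4e3* had 414, 209 and 208 CPM in late libraries and 48.2, 53.5 and 48.4 CPM in early libraries (log2 fold change 2.47, standard error 0.47, adjusted p = 0.000267), a peak of the late stage, since prepupae had 5.38 ± 2.21 CPM. *Cyp6g1*, a well-known insecticide-resistance gene, had 10790, 7585 and 8557 CPM in late libraries and 11270, 10840 and 8058 CPM in early libraries, which overlap (-0.16, adjusted p = 0.413).

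Of 20 antimicrobial peptide genes 4 were higher and 9 lower. The share higher was near the 18.4% of all genes, and the share lower was above the 23.2% of all genes. *Drs*, the antifungal peptide drosomycin, had 364, 293 and 372 CPM in late libraries, against 105, 156 and 85.1 CPM in early libraries (log2 fold change 1.57, standard error 0.22, adjusted p = 8.83e-06). *Drsl2*, a drosomycin-like gene, had 4.41, 1.07 and 1.82 CPM in late libraries and 0.171, 0.0449 and 0.173 CPM in early libraries (log2 fold change 4.13, standard error 0.95, adjusted p = 0.00163). Cecropin genes and the attacin gene AttB fell, but the early libraries differed widely among themselves. *CecB* had 0.355, 0.144 and 0.308 CPM in late libraries and 0.854, 15.6 and 7.52 CPM in early libraries (log2 fold change -4.90, standard error 0.75, adjusted p = 2.76e-05), *CecC* had 1.53, 1.18 and 1.17 CPM in late libraries and 2.56, 29.0 and 22.4 CPM in early libraries, and *AttB* had 17.2, 8.82 and 14.4 CPM in late libraries and 18.4, 133 and 79.8 CPM in early libraries (log2 fold change -2.52, standard error 0.43, adjusted p = 9.65e-05). For each of these genes early replicate 1 lay closer to the late libraries than to the other early ones. *CecA2* (-3.90) had 0.497, 0.115 and 0.48 CPM in late libraries and 0.256, 5.53 and 10.2 CPM in early libraries, of which replicate 1 lay inside the late range. Without early replicate 2, 6 genes of the list fell. None of the 12 Bomanin genes passed the edgeR test, and *BomS3*, a short Bomanin, had 5.83, 3.40 and 6.545 CPM in late libraries and 4.14, 26.3 and 15.8 CPM in early libraries. The count at an unadjusted p under 0.05 was also 0, and DESeq2 called 0. With only the 6 compared libraries in the fit 2 of the 12 were called lower, BomS3 (-1.56, adjusted p = 0.03) and *BomS1* (-2.07, adjusted p = 0.016).

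Long noncoding genes rose more often than they fell, with 157 of 827 higher (19.0%) and 73 lower (8.83%), where 18.4% of all genes were higher and 23.2% lower. Their median was 0.46. Genes of any class at low levels showed a like pattern. In the lowest of the 5 level classes 422 rose and 46 fell (median 0.59), and in the next 518 rose and 172 fell (median 0.44). The part of expression level in the lncRNA counts was not tested. With each library thinned, 756 ± 79.2 lncRNA genes reached 15 counts at the late stage and 475 ± 67.3 at the early stage (SD, n = 3 each, exact permutation p = 0.1). The limit of thinning given above holds here too. The number of rises was 87 and 97 without late replicates 2 and 3, and 300 and 244 without late replicate 1 and early replicate 3. That of falls was 47 and 45 without early replicates 1 and 2. *lncRNA:CR45593* had 15.9, 21.8 and 26.7 CPM in late libraries, against 1.45, 1.53 and 0.762 CPM in early libraries (log2 fold change 4.13, standard error 0.26, adjusted p = 6.71e-10), and overlaps *Ama* on the other strand. *lncRNA:CR45018* had 14.8, 24.1 and 32.6 CPM in late libraries and 4.44, 3.77 and 4.78 CPM in early libraries (log2 fold change 2.46, standard error 0.23, adjusted p = 8.61e-08), and lies within *IP3K2* on the same strand. *lncRNA:let7C*, the precursor of the hormone-responsive microRNAs let-7, mir-100 and mir-125, had 4.09, 6.34 and 8.57 CPM in late libraries and 1.67, 2.02 and 0.901 CPM in early libraries (log2 fold change 2.07, standard error 0.26, adjusted p = 2.62e-06). *lncRNA:CR43641* (log2 fold change 2.13, adjusted p = 1.72e-06) and *lncRNA:CR44060* (log2 fold change 2.06, adjusted p = 2.18e-05) rose to a like degree. The leading falls after asRNA:CR43964 were *lncRNA:CR44316* (log2 fold change -2.31, adjusted p = 1.34e-06), *asRNA:CR45144* (log2 fold change -2.17, adjusted p = 3e-07), *lncRNA:CR45348* (log2 fold change -1.94, adjusted p = 2.26e-06) and *asRNA:CR46129* (log2 fold change -1.94, adjusted p = 3.3e-05).

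Marker lists of other tissues changed in several directions. Muscle markers summed to 358 to 478 CPM in late libraries and 578 to 673 CPM in early libraries, and 6 of 14 fell, or 2 without early replicate 1 or 2 or late replicate 2 or 3. Hemocyte markers summed to 355 to 385 CPM at the late stage and 414 to 439 CPM at the early stage. Of 12 tested, 4 were lower (33.3%, against 23.2% of all genes), 1 was higher and 7 were not called, with a median of -0.02. *Hml* was among those lower (log2 fold change -1.03, adjusted p = 7.33e-06). Cuticle genes summed to 1500 to 1930 CPM in late and 1070 to 1300 CPM in early libraries. Of 65 tested, 10 were higher and 10 lower (15.4% each, against 18.4% and 23.2% of all genes). Without late replicate 1 and early replicate 3, 24 and 21 were higher. *ple*, tyrosine hydroxylase of the cuticle and of dopamine neurons, had 28.1, 16.0 and 12.9 CPM in late libraries, against 1.83, 1.89 and 1.84 CPM in early libraries (log2 fold change 3.36, standard error 0.29, adjusted p = 2.68e-08), and 78.6 ± 8.68 CPM in prepupae. Sums of the disc, trachea, oenocyte, Malpighian tubule, salivary gland and gut lists overlapped between the groups. Neuronal markers summed to 393 to 435 CPM in late libraries and 342 to 373 CPM in early libraries. Ovary markers summed to 26.9 to 33.1 CPM in late libraries and 19.7 to 21.3 CPM in early libraries, with 5 of 11 higher, 1 without late replicate 2 and 10 without late replicate 1. Chemosensory receptor genes summed to 195 to 208 CPM in late libraries and 130 to 160 CPM in early libraries. Of 110 tested, 21 were higher (19.1%, near the 18.4% of all genes) and 1 was lower (0.909%, against 23.2% of all genes). The number higher was 13 without late replicate 2 and 44 without late replicate 1. Testis markers, in these female samples, summed to 16.5 to 21.0 CPM in late and 6.33 to 7.48 CPM in early libraries, chiefly through *Mst87F* (9.84, 11.03 and 11.3 CPM in late libraries, 1.11, 1.08 and 0.589 CPM in early libraries). Of the 179 chemosensory genes 1 was at 0 in all 6 libraries, and no gene of the other lists was. The part of other tissues in the changes above was not tested.

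The same interval in the Zambian population gave 4439 called genes, of which 2794 were also called in the Dutch population in the same direction (53.9% of the Dutch and 62.9% of the Zambian calls) and 60 in the opposite direction. Pearson's r of the log2 fold changes was 0.58 over the 12460 genes, which are not independent replicates. A test of the difference itself called 980 genes (7.87%), with the Dutch change more positive in 434 and more negative in 546. Of 2326 Dutch calls that were not called in Zambia, 393 (16.9%) had a called difference, so the others were not shown to differ. The number called was unstable: it ran from 199 without Dutch early replicate 2 to 2689 without Dutch early replicate 3, and each omission of 1 of the 12 libraries except Zambian early replicate 3 moved it by over 1.5 times. In the lowest class of expression level the median log2 fold change was 0.59 for Dutch and -0.23 for Zambian libraries.

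The most negative differences were those of *CecA2*, *edin*, *GstD5*, *PGRP-SB1*, *CG10332* and *AttB*, of which CecA2, edin, PGRP-SB1 and AttB are known as immune genes. *PGRP-SB1*, a peptidoglycan recognition protein gene, had 22.0, 37.5 and 34.6 CPM in late Dutch libraries and 36.8, 90.0 and 56.8 CPM in early Dutch libraries, and 188, 184 and 203 CPM in late Zambian libraries and 19.3, 25.7 and 43.7 CPM in early Zambian libraries (difference -3.66, adjusted p = 4.14e-05). The Dutch fall was lost without early replicate 2 (-0.40) or late replicate 1 (-0.57). The glutathione S-transferase gene *GstD5* fell in the Dutch population (-2.29, adjusted p = 0.000102) and rose in the Zambian one (1.502, adjusted p = 0.00478), with a difference of -3.80. *Tsp42Eg* had a log2 fold change of -3.28 in the Dutch population and a Zambian log2 fold change of -0.53 (adjusted p = 0.0593), a difference of -2.75 (adjusted p = 4.36e-06). Its Zambian libraries held 0.645, 0.669 and 0.745 CPM at the late stage and 1.15, 0.821 and 1.003 CPM at the early stage. The most positive differences, *CG6839*, *BomT3*, *CG4734*, *Mal-A1*, *CG10089* and *BomBc3*, all belonged to genes that did not pass the test in the Dutch population and fell in the Zambian one. *Mal-A1*, for instance, had 2.81, 2.07 and 2.30 CPM in late Dutch and 1.96, 1.71 and 1.77 CPM in early Dutch libraries, and 4.37, 4.53 and 5.75 CPM in late Zambian and 28.9, 29.8 and 33.1 CPM in early Zambian libraries (difference 3.04, adjusted p = 4.36e-06).

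**Figure D5:**
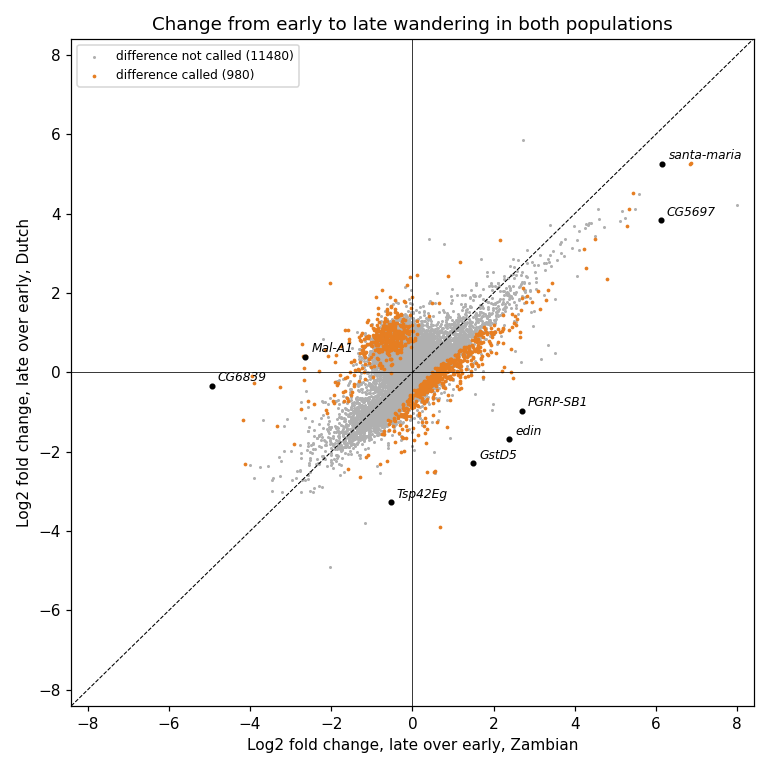
Log2 fold change (late over early) in the Dutch population (vertical axis) against that in the Zambian population (horizontal axis) for the 12460 genes; orange points are the 980 genes whose changes differed by the test of the difference, grey points the others, and named points are genes of the text. Tsp42Eg lies at -3.28 on the Dutch and -0.53 on the Zambian axis, and PGRP-SB1 at -0.96 and 2.70.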

How the data were processed

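RNA of pooled larval fat bodies was sequenced after ribosomal depletion, in 18 libraries. The authors aligned read pairs to the annotated transcriptome with NextGenMap, discarded pairs that mapped ambiguously and summed over the transcripts of a gene, and the deposited values are raw counts per gene. Whether counting used strand is not given in the sources used here. Genes averaging at least 15 counts over the 18 libraries were tested with edgeR 4.0.16 (quasi-likelihood F test, TMM scaling, 1 factor of 6 population and stage groups) in R 4.3.3, and p-values were adjusted by Benjamini and Hochberg over 12460 genes. CPM are TMM-scaled. Standard errors are the log2 fold change over the root of F. Per-library totals were compared by a two-sided exact permutation test, in which 3 against 3 cannot go below p = 0.1. Nothing in the labels says that libraries of a group came from separate rearings, so p-values measure the spread between these pools.

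Genes named are the 12 largest rises and falls with groups apart and a mean of at least 1 CPM, up to 4 called genes and the most expressed gene of each list, all members of the ecdysone regulator, hormone metabolism, storage protein and matrix lists, 5 lncRNA genes per direction, 6 per direction of the Dutch and Zambian difference and the 10 most expressed. *Mp*, *Hex-C*, *ND-24L* and *BomS1* were chosen after their values were seen. Members and lists were chosen with earlier results of these data known. Symbols and coordinates are from the Ensembl annotation of genome release 6. Alternatives were DESeq2 1.42.0, other scalings and filters, only the compared libraries, a replicate block, and omission of each library. The main fit was also run on simulated counts in which only a small part of the genes changed. That run does not bear on how the results depend on the scaling.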

Additional observations from a re-analysis of the deposited data

Results flagged for a closer look

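A change between the stages differed between the populations for 34 of the genes described, by the test of the difference itself (edgeR, adjusted p under 0.05, Dutch minus Zambian log2 fold change). The difference was negative for *CG34206* (-1.59, adjusted p = 0.000712), *CG9812* (-1.57, adjusted p = 0.0207), *CG5618* (-0.93, adjusted p = 0.0496), *CG1607* (-1.23, adjusted p = 0.00139), *CG5697* (-2.29, adjusted p = 8.75e-05), *lncRNA:let7C* (-1.28, adjusted p = 0.0447), *Hr39* (-1.02, adjusted p = 0.0108), *tai* (-0.70, adjusted p = 0.0338), *CtsL1* (-1.15, adjusted p = 0.0173) and *Mal-A5* (-0.64, adjusted p = 0.0492), all of which rose in the Dutch population. It was also negative for *Tsp42Eg* (-2.75, adjusted p = 4.36e-06), *Eip74EF* (-0.66, adjusted p = 0.0387), *Timp* (-1.35, adjusted p = 0.0244), *mino* (-0.75, adjusted p = 0.0446), *Mcm3* (-0.85, adjusted p = 0.0494), *Hsc70-4* (-1.03, adjusted p = 0.00596) and *Cyp6g1* (-1.14, adjusted p = 0.00968). It was most negative for *GstD5* (-3.80, adjusted p = 0.000712), *edin* (-4.08, adjusted p = 0.00144), *PGRP-SB1* (-3.66, adjusted p = 4.14e-05), *CecA2* (-4.58, adjusted p = 0.0342), *CG10332* (-3.04, adjusted p = 0.0315) and *AttB* (-2.89, adjusted p = 0.0101). It was positive for *Blimp-1* (1.14, adjusted p = 0.0389), *Mmp1* (1.17, adjusted p = 0.0355), *ND-24L* (2.21, adjusted p = 0.0397), *Cyp4e3* (2.36, adjusted p = 0.0348) and *lncRNA:CR44316* (1.81, adjusted p = 0.0155), and for *CG6839* (4.62, adjusted p = 0.00119), *BomBc3* (3.86, adjusted p = 0.0308), *BomT3* (3.62, adjusted p = 0.0171), *CG4734* (3.11, adjusted p = 0.0338), *Mal-A1* (3.04, adjusted p = 4.36e-06) and *CG10089* (3.02, adjusted p = 0.0062), none of which passed the test in the Dutch population. Each of these calls is 1 of 980, a number that ranged from 199 to 2689 when single libraries were left out.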

How the results depend on the processing

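Of 261 genes chosen by the naming rule, 229 passed the test, 203 of them kept call and direction under every planned setting other than leaving out a library, and 187 whichever of the 6 libraries was left out. None of the 229 changed direction. Genes called ranged from 3782 to 6841 when single libraries were left out, rises from 1411 to 4332, falls from 1977 to 2569, lncRNA rises from 87 to 300 and lncRNA falls from 45 to 61. TMM factors from well-expressed genes gave 3726 rises (246 lncRNA) and upper-quartile factors 3717 (247 lncRNA), since both move the median of all genes up, by 0.21. A minimum mean of 50 counts left 84 lncRNA rises and 46 falls, from fewer genes tested. Calls of the difference between populations numbered 1579 with DESeq2, 640 with a mean of 50 counts, 427 with only the libraries compared, 563 with upper-quartile factors and 199 to 2689 with single libraries left out; the cause was not tested. With 5 counts, or without thinning, 1365.67 or 1628.33 more genes were detected per late than early library. The storage share was 9.46 percentage points lower at the late stage without the 10 other genes with the most counts.

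Genes with no call changed sign. With factors from well-expressed genes and with upper-quartile factors the log2 fold changes were 0.12 and 0.12 for *BomBc3*, 0.0423 and 0.0411 for *Cyp6g1*, 0.0114 and 0.0059 for *DopEcR*, and 0.11 and 0.11 for *mino*. With a mean of 50 counts they were 0.0153 for BomBc3 and 0.0186 for mino. With single libraries left out they ranged from -0.39 to 0.61 for BomBc3, -0.67 to 0.60 for *BomT3*, -0.63 to 0.92 for *CG6839*, -0.16 to 0.0673 for Cyp6g1, -0.29 to 0.12 for DopEcR, -0.0247 to 0.27 for *Eip74EF*, -0.13 to 0.37 for *Lsd-1*, -0.0688 to 0.41 for *Mcad* and -0.0509 to 0.12 for mino.

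Whether libraries with the same replicate number belong together cannot be told from the counts. Deviations of same-numbered late and early libraries correlated at 0.14, -0.36 and 0.14, and those of different-numbered ones at -0.42 to 0.46. With the replicate number as a block 5050 genes were called, 2219 higher and 2831 lower, with 142 and 72 lncRNA genes, and 647 for the difference between populations.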

Other observations

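Changes also differed with gene length as the count table gives it. Among the shortest of 5 equal length classes (median 823 bases), 277 rose and 762 fell at the late stage, with a median log2 fold change of -0.0962. Among the longest (median 5087 bases), 746 rose and 366 fell, with a median of 0.26, and the medians of the classes between lay in order.

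Differences between the populations followed the level of expression. In the lowest of 5 equal classes of mean log2 CPM the Dutch change was called more positive for 110 genes and more negative for 7, and in the highest for 11 and 284.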
